A study of Mus musculus with 4 samples.

Results

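The 8 genes described here encode 2 isoforms of the kinase AKT and the proteins that switch AKT on, turn it off or carry its signal to growth control: Akt1, Akt2, Pik3ca, Pik3cb, Pik3r1, Pdpk1, Phlpp1 and Tsc2. They were chosen by name, and the probe sets used are those that the platform annotation ties to 1 symbol alone, which gave 22 probe sets for the 8 of 18193 genes measured in this way. RNA came from 4 cultures of fetal liver progenitor cells of p53-/- mice, and each culture was read on 1 Affymetrix Mouse Genome 430 2.0 array. One culture is labelled non-transformed, and the others carry H-RasV12 (a RAS GTPase locked in its active state), myr-Akt (a form of AKT that a myristoyl group tethers to the membrane, with the isoform not named in the labels) or c-Myc (a growth-driving transcription factor). All 4 lack p53 and grew in the same medium with serum, insulin-containing supplement, dexamethasone, EGF and HGF, so ligands that feed the PI3K pathway were present in every culture. The sources used here do not give the vector or promoter behind each oncogene, the species of its sequence, the passage, or whether a culture is 1 clone.

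Class I PI3K is a heterodimer of a p110 catalytic subunit and a regulatory subunit such as p85. Growth factor receptors, their adaptors and RAS recruit it to the membrane, where it makes the lipid PIP3. PIP3 draws AKT and the kinase PDK1 together, PDK1 and mTORC2 phosphorylate AKT, and PHLPP phosphatases remove one of these phosphates. Active AKT phosphorylates TSC2, which relieves the brake on RHEB and mTORC1, and keeps FOXO transcription factors out of the nucleus. In liver the pathway carries the insulin signal and, when it is constantly active, drives growth and lipid synthesis. Most of this control acts on proteins and lipids, and the arrays measured RNA only.

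With 1 array for each culture there is no spread between replicates, no standard error and no p-value, so having 4 arrays in all sets the precision. Signals are scaled MAS5 intensities with no unit. A floor at a signal of 100.001 was applied before log2, and values at the floor have no order. A difference counts as called when it reached 2-fold, a log2 difference of 1, among the 10679 genes that 1 or more arrays read above the floor. As a scale for disagreement between probe sets, the 2 brightest of a gene gave log2 differences a median of 0.17 to 0.22 apart across the 6 comparisons. The 90th percentile of that gap was 0.49 to 0.67. The gap does not measure spread between cultures, because a shift shared by both probe sets leaves it unchanged. The 3 comparisons with non-transformed cells share its array.

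Myc, the mouse gene named by one of the labels, had 1 probe set, which read 420.6 where the label is c-Myc, against 2285 in non-transformed cells, 1747 with H-RasV12 and 639.7 with myr-Akt, so it went against that label. Whether it can bind the introduced transcript is unknown here, and every direction given below for that array rests on its label. The H-RasV12 label was not checked in this way, because Hras had no single-gene probe set in the annotation used. The labelled cell type was checked against markers. Of 9 hepatoblast and hepatocyte markers, 5 were above the floor in non-transformed cells, 9 on the array labelled H-RasV12, and 3 each on those labelled myr-Akt and c-Myc. Their summed signals were 7900, 24297, 3686 and 3801 in that order. Afp, Alb, Ttr and Hnf4a were above the floor on the H-RasV12 array alone, where Afp had a signal of 568.3, and they lay between 3.7 and 43.6 elsewhere. Apoa1, Krt8, Krt18 and Foxa2 were also highest on that array, and Foxa2 was above the floor on every array. Dlk1 went the other way, at 1898.0 on the array labelled c-Myc against 262.4 with H-RasV12. Mesenchymal, stellate and mesothelial markers had a summed signal of 147568 in non-transformed cells, 95008 for H-RasV12, 87863 for myr-Akt and 75215 for c-Myc. Single markers differed in the same array order. Pdgfrb read 769.8, 554.8, 60.8 and 22.8, Des 1174.7, 240.8, 119.4 and 67.8, and Msln 7836.5, 3095.6, 238.3 and 348.0. Upk3b was lowest with H-RasV12, at 1299.0 against 15166.7 in non-transformed cells. Vim was bright throughout, at 24929.5, 31615.3, 18081.1 and 17526.9, and Wt1 read 3419.4, 1528.8, 3771.5 and 3438.3. Of the 10 markers, 10, 10, 9 and 8 were above the floor. Of 4 biliary and progenitor markers with a probe set, 4, 3, 3 and 2 were above it in the same order, with summed signals of 4443, 5147, 2145 and 3491. Blood cell markers were near background, with at most 1 of 6 above the floor and Ptprc at 5.1 or less. Endothelial markers had at most 1 of 5 above it, with Pecam1 at 4.9 or less. The endothelial marker above the floor was Flt1, at 109.3 in non-transformed cells, 254.3 with H-RasV12, 21.9 with myr-Akt and 36.8 with c-Myc. Summed signals of the blood cell and endothelial lists ran from 165.7 to 219.2 and from 93.3 to 289.3. These marker levels differed between the same arrays as the values below, and their part in those values was not tested. In RNA of a whole culture, fewer cells of a type and less RNA per cell cannot be told apart.

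For 4 of the genes the 250 bases before an annotated transcription start are shown, because Akt1 had the same direction in all 3 oncogene cultures, Phlpp1 and Pik3r1 differed most between them, and the Akt1 and Pik3ca stretches held the only matches to the 3 motifs given below. Sequences are from RefSeq annotation on GRCm38.p6, written 5′ to 3′ on the gene's strand, with motif matches in capitals.
Akt1, chr12:112674885-112675134, minus strand: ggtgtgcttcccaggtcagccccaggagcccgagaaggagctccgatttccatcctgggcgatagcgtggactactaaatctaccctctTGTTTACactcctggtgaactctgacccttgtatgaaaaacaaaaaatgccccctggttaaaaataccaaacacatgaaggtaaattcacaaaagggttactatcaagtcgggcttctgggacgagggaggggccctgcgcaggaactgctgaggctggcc
Pik3ca, chr3:32396815-32397064, plus strand: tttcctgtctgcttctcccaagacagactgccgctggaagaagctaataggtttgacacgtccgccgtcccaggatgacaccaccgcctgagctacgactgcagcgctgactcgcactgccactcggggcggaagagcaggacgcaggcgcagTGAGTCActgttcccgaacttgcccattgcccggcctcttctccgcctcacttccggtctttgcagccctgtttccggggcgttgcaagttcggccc
Phlpp1, chr1:106171619-106171868, plus strand: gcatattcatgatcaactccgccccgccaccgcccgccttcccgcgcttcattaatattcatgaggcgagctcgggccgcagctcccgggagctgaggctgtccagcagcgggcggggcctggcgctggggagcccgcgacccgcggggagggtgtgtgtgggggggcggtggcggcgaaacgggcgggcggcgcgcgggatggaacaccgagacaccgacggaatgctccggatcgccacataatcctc
Pik3r1, chr13:101768218-101768467, minus strand: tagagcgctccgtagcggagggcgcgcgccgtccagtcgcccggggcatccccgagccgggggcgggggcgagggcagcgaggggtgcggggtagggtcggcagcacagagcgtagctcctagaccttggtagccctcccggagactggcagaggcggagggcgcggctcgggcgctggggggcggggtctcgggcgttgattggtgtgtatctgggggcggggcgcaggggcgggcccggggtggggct

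One motif was searched for each oncogene's pathway, on both strands. These were the MYC E-box, CACGTG, the FOXO motif, GTAAACA, and the AP-1 motif, TGANTCA. They were kept, out of 5 motifs tried, after the members' promoters had been searched, and the others were a GC box and an ETS motif. All 8 genes matched the promoter table, with 14 annotated starts. The FOXO motif was found before 1 of the 14 starts, beginning 161 bases before the more distal Akt1 start, and 3.17% of 32851 promoter stretches of this length hold it. The AP-1 motif was found before 1, beginning 97 bases before the Pik3ca start, against 6.75% of all stretches. The E-box was found before 0 of 14, against 6.02% of all. The other Akt1 start, chr12:112674277-112674526, had no match and a GC content of 78.4%, against 52.0% for the stretch shown. A match is a description of letters and not of binding.

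Akt1, which encodes the AKT isoform best known for growth and survival signals, had a higher signal in every oncogene culture than in non-transformed cells, by about the same amount. Its brightest probe set (1416657_at) read 1870.1 in non-transformed cells, 2760.3 with H-RasV12, 2833.9 with myr-Akt and 2991.3 in the culture labelled c-Myc. The non-transformed array stood lowest, and the myr-Akt culture did not stand out from the other transformed ones. The log2 differences from non-transformed cells were 0.56, 0.60 and 0.68, or 1.48-fold, 1.52-fold and 1.60-fold. The next brightest probe set (1425711_a_at) read 568.3, 862.0, 839.2 and 977.0 in the same order, with differences of 0.60, 0.56 and 0.78. The third (1440950_at), near the floor, read 136.6, 156.6, 149.5 and 201.2. All 3 probe sets above the floor were thus lowest in non-transformed cells and highest on the array labelled c-Myc. The fourth lay under the floor throughout, at 7.8 or less.

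By its brightest probe set, the Akt1 difference between myr-Akt and the other oncogene cultures was 0.04 against H-RasV12 and -0.08 against c-Myc. Both were smaller than the median gap between probe sets of a gene. The sign against H-RasV12 turned with the next brightest probe set (-0.04) and with the mean over probe sets (-0.02). Against c-Myc the next brightest probe set gave -0.22 and the third, near the floor, -0.43, both beyond the median gap of 0.17 in that comparison. The array labelled myr-Akt was thus not set apart by its Akt1 signal. It is unknown here whether these probe sets can bind the introduced transcript, and if they cannot, the signal does not check the label. Against all genes the Akt1 difference was not extreme: 23.9% of the 10679 genes differed from non-transformed cells as far or farther on the H-RasV12 array, 37.7% on the myr-Akt array and 29.8% on the c-Myc array. With each array brought to a common median, the Akt1 difference for c-Myc was 1.03 and passed 2-fold.

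Akt2, the isoform most tied to insulin action in liver, showed the smallest range of the 8 genes. Its brightest probe set (1424480_s_at), of a kind that can bind more than 1 transcript, read 866.1 in non-transformed cells, 771.3 with H-RasV12, 855.3 with myr-Akt and 897.7 in the culture labelled c-Myc. The highest and lowest arrays were 1.16-fold apart, and 91.8% of genes had as wide a range or wider. The differences from non-transformed cells were -0.17, -0.02 and 0.05, all smaller than the median probe-set gap. The other probe sets straddled the floor: 1455703_at read 80.5, 63.2, 114.2 and 188.9, and 1421324_a_at read 112.7, 96.5, 77.9 and 109.7. The first of these was highest on the c-Myc array, 0.92 above the floor value of non-transformed cells, while the second was 0.04 below non-transformed there. For myr-Akt the Akt2 sign turned in 5 of the 8 alternatives, as its value is close to 0.

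**Figure D1:**
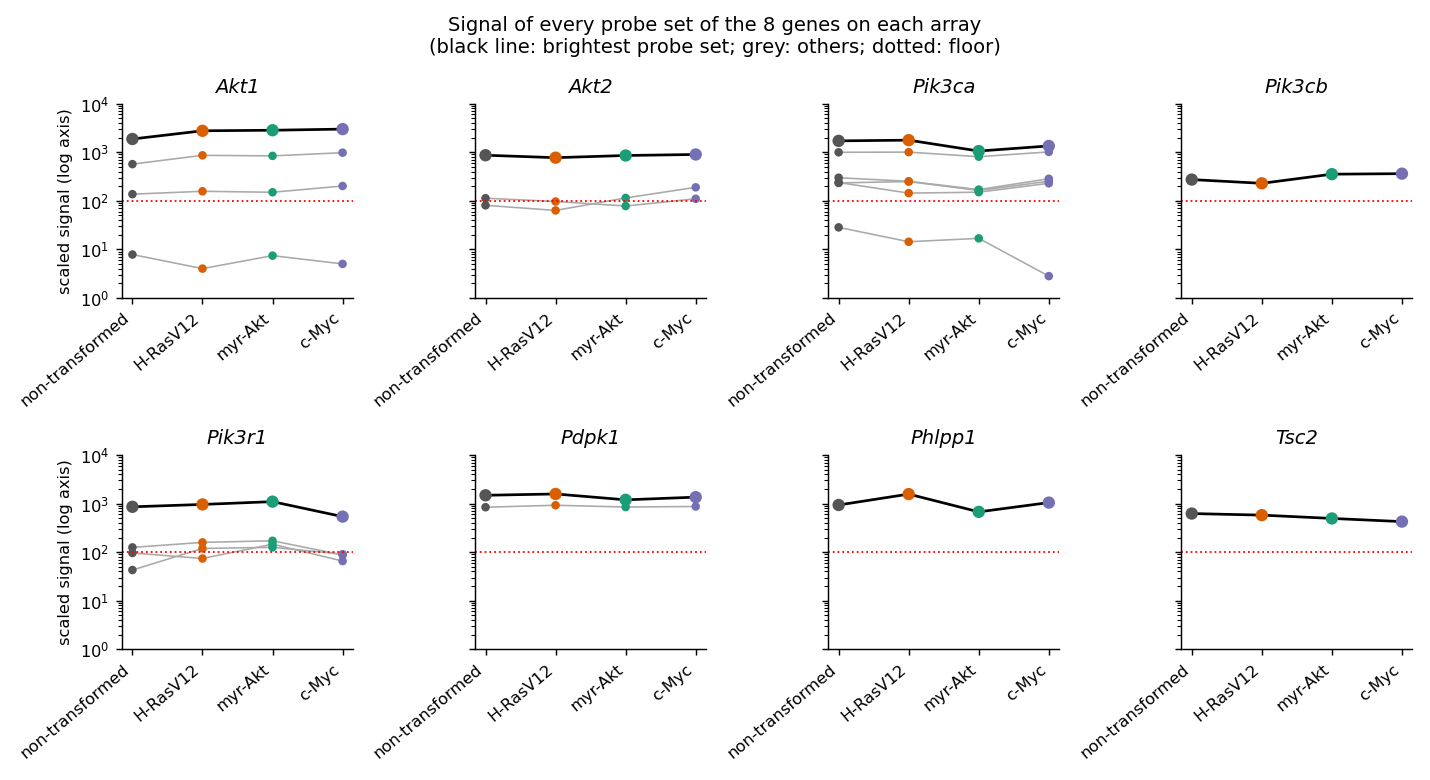
Scaled signal (log axis) of each of the 22 probe sets of the 8 genes on the 4 arrays, 1 panel per gene. Lines join the points of 1 probe set and carry no order, the black line is the brightest probe set and the dotted line is the floor at 100.001. Akt1 is lowest in non-transformed cells by its 3 probe sets above the floor, and Phlpp1 runs from 675.2 with myr-Akt to 1568.9 with H-RasV12.

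Among the class I catalytic subunits, Pik3ca, which encodes p110alpha, was lowest on the array labelled myr-Akt. Its brightest probe set (1460326_at) read 1710.8 in non-transformed cells, 1770.6 with H-RasV12, 1056.2 with myr-Akt and 1345.5 in the culture labelled c-Myc. The myr-Akt signal was 1.62-fold below non-transformed cells (log2 difference -0.70), which 31.3% of genes matched or exceeded in size. The next probe set (1423144_at) read 996.7, 1003.5, 808.4 and 1013.1, a smaller difference of -0.30 for myr-Akt. All 5 Pik3ca probe sets above the floor on every array were lower with myr-Akt than in non-transformed cells, by 0.30 to 0.81, and 4 of the 5 were lowest there. The probe sets did not share a direction elsewhere: for c-Myc the brightest gave -0.35 and the next 0.02, and with a common median the brightest gave 0.01. For H-RasV12 they ran from -0.73 to 0.09.

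Pik3cb, which encodes p110beta, had 1 probe set and read 273.0 in non-transformed cells, 228.5 with H-RasV12, 352.6 with myr-Akt and 361.4 in the culture labelled c-Myc. The myr-Akt and c-Myc signals lay above both other arrays, at log2 differences from non-transformed cells of 0.37 and 0.40 against -0.26 for H-RasV12. Against H-RasV12 the differences were 0.63 and 0.66, which 26.5% and 24.7% of genes matched or exceeded in size. The myr-Akt and c-Myc arrays themselves differed by -0.04, a value whose sign turned with quantile normalization. For myr-Akt, Pik3ca and Pik3cb had opposite signs against non-transformed cells, and each kept its sign under all 8 alternatives. For Pik3cb, with 1 probe set, the alternatives of floor and probe set could not move the value. For Pik3ca those of floor could not.

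Of the other catalytic subunits, Pik3cd, which encodes the p110delta best known from white blood cells, read 8306 in non-transformed cells, 5525 with H-RasV12, 6197 with myr-Akt and 7536 in the culture labelled c-Myc by its brightest probe set. Its next probe set was near the floor at 103.5, 50.9, 99.8 and 197.5, and put the c-Myc array highest. Pik3cg, which encodes p110gamma, was under the floor on all arrays.

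Pik3r1, which encodes p85alpha and its shorter forms, the subunits that stabilise and restrain p110, was highest with myr-Akt and lowest in the culture labelled c-Myc. Its brightest probe set (1438682_at) read 858.5 in non-transformed cells, 960.7 with H-RasV12, 1097.3 with myr-Akt and 538.7 in the culture labelled c-Myc. The c-Myc array stood apart below the other 3, and the myr-Akt signal was 2.04 times the c-Myc signal (log2 difference 1.03). The remaining probe sets were dim: 1425515_at read 125.2, 158.7, 171.3 and 87.4, 1425514_at read 96.2, 74.0, 145.7 and 65.5, and 1451737_at read 42.8, 119.2, 125.7 and 90.7. All 4 were highest on the myr-Akt array. The c-Myc array was lowest by the first 2, while the third was under the floor on 3 arrays and the fourth on 2, where values have no order.

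Pik3r1 was the 1 of 8 genes called between myr-Akt and c-Myc, where 3.54% of all genes were called in either direction, and 3.28% differed as far or farther. This call sits at the threshold: the log2 difference was 0.78 with the next brightest probe set, whose c-Myc signal is at the floor, 0.67 with the mean over probe sets, 0.91 with a pseudocount and 0.99 with median scaling. Against non-transformed cells the differences were 0.16 for H-RasV12, 0.35 for myr-Akt and -0.67 for c-Myc, none of them called.

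Of the other regulatory subunits, Pik3r2, which encodes p85beta, read 622.3 in non-transformed cells, 583.2 with H-RasV12, 396.0 with myr-Akt and 473.5 in the culture labelled c-Myc, with its lowest value on the array where Pik3r1 was highest. Pik3r3, which encodes p55gamma, read 319.8, 316.0, 800.4 and 315.6 by its 1 probe set, so the myr-Akt array stood 2.50-fold above non-transformed cells (log2 difference 1.32) and the other 3 arrays lay within 0.02 of each other. Like Pik3r1 it was called higher with myr-Akt than on the array labelled c-Myc (log2 difference 1.34). The call against non-transformed cells held under all 8 alternatives, of which those that change the probe set or the floor could not move it. Pik3ip1, an inhibitor of p110, read 234.8, 134.1, 44.5 and 185.9 and was at least 2.35-fold lower with myr-Akt. It was no longer called when the floor was raised to 40% (-0.23) or with its next probe set (-0.78), where the floor limits what can be seen. Pik3r6, an adaptor of p110gamma, lay near the floor at 71.4 to 117.5, and Pik3r5 and Pik3ap1 were under it.

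Pdpk1, which encodes the PDK1 kinase that phosphorylates AKT, had a narrow range. Its brightest probe set (1415729_at) read 1483.0 in non-transformed cells, 1579.1 with H-RasV12, 1195.1 with myr-Akt and 1357.5 in the culture labelled c-Myc, and the other (1416501_at) read 841.8, 924.4, 849.5 and 871.8. Both were highest with H-RasV12, by 0.09 and 0.14 over non-transformed cells. For myr-Akt they gave -0.31 and 0.01, and with a common median the brightest gave 0.00, so no direction can be given.

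Phlpp1, which encodes a phosphatase that removes an activating phosphate from AKT, had the widest range of the 8 genes. Its 1 probe set (1426994_at) read 935.7 in non-transformed cells, 1568.9 with H-RasV12, 675.2 with myr-Akt and 1048.5 in the culture labelled c-Myc. The H-RasV12 array was highest, 1.68-fold above non-transformed cells (log2 difference 0.75), and 14.6% of genes differed as far or farther. The myr-Akt array was lowest, at -0.47, and the array labelled c-Myc stood at 0.16. With median scaling these 2 values were -0.16 and 0.52, so which of the arrays lay nearer to non-transformed cells depends on the scaling.

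Phlpp1 was the 1 of 8 genes called between myr-Akt and H-RasV12, with a log2 difference of -1.22, or 2.32-fold. In that comparison 13.7% of all genes were called in either direction and 10.4% differed as far or farther, so the share of 1 in 8 is near the background. With median scaling the value was -0.999 and no longer called. Phlpp2, its close relative, singled out after its values were seen, read 482.5, 479.2, 736.9 and 775.3 in the order non-transformed, H-RasV12, myr-Akt and c-Myc. Its differences from non-transformed cells were -0.01, 0.61 and 0.68, so for myr-Akt the signs of the pair were opposite. The next probe set of Phlpp2 was under the floor on every array.

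Tsc2, which encodes tuberin, the RHEB-inactivating protein that AKT restrains, was highest in non-transformed cells. Its 1 probe set (1452105_a_at) read 623.3 there, 578.6 with H-RasV12, 494.6 with myr-Akt and 425.5 in the culture labelled c-Myc. The log2 differences were -0.11, -0.33 and -0.55, none of them called, and 78.4%, 60.3% and 38.6% of genes differed as far or farther. With median scaling they were -0.01, -0.02 and -0.20, and with 1 probe set the alternatives of floor and probe set could not move them. Tsc1, the partner that stabilises TSC2, was singled out in the same way and read 478.1, 372.5, 418.3 and 364.1 by its brightest probe set. Its next probe set read 109.5, 141.4, 189.0 and 222.6, which put non-transformed cells lowest in place of highest and the c-Myc array highest in place of lowest.

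**Figure D2:**
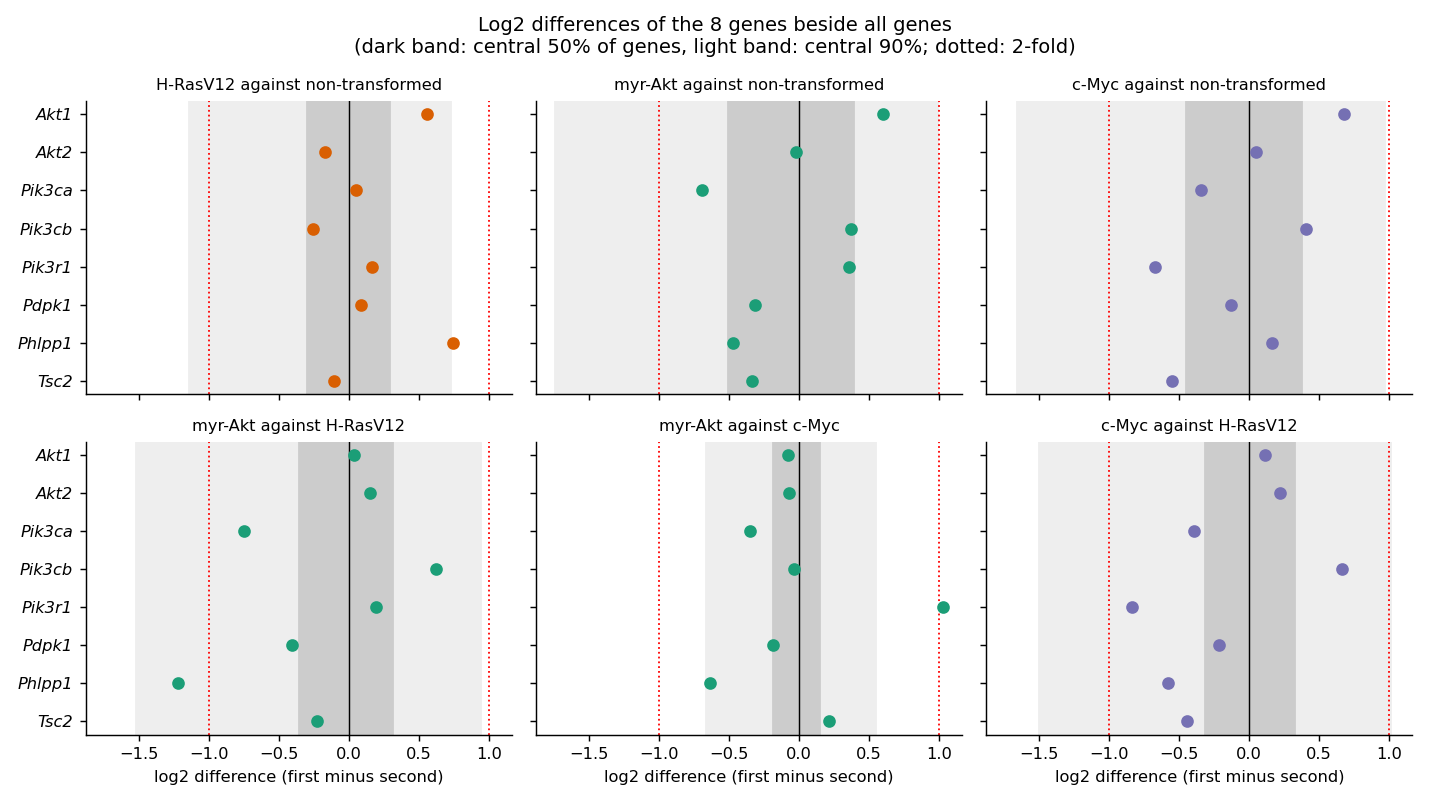
Log2 differences of the 8 genes (1 point per gene, brightest probe set) in the 6 comparisons, beside bands for the central 50% and central 90% of the 10679 genes measured. Dotted lines mark 2-fold. Phlpp1 between myr-Akt and H-RasV12 (-1.22) and Pik3r1 between myr-Akt and c-Myc (1.03) are the points past 2-fold.

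Counted together, 0 of the 8 genes were called in either direction on any oncogene array against non-transformed cells. The background for H-RasV12 was 2.08% of all genes higher and 6.27% lower. For myr-Akt it was 4.9% higher and 12.7% lower, and for c-Myc 4.42% higher and 11.3% lower. With median scaling the background turned to 1297 higher and 940 lower for myr-Akt, from 523 and 1353, and to 1399 and 813 for c-Myc, from 472 and 1211, and the median of all genes moved from -0.02 to 0.25 and from 0.00 to 0.31. Akt1 was then called for c-Myc, as given above, beside that shift of 0.31. Under this scaling Akt1 stood at 0.91 for myr-Akt, Pik3ca at -0.38, Pik3cb at 0.68 and Pik3r1 at 0.67, and for c-Myc Pik3cb stood at 0.76 and Pik3r1 at -0.32.

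Between c-Myc and H-RasV12, 0 of 8 were called, where 13.9% of all genes were called in either direction. The largest difference there was that of Pik3r1, at -0.83. With median scaling the higher share of called genes moved from 36.8% to 55.7% in this comparison and from 31.9% to 48.1% between myr-Akt and H-RasV12. The median difference over the 8 genes was 0.07 for H-RasV12, -0.16 for myr-Akt and -0.04 for c-Myc against non-transformed cells, beside 0.00, -0.02 and 0.00 over all genes. The median size of the difference, regardless of sign, was 0.16, 0.36 and 0.38 for the 8 genes and 0.29, 0.44 and 0.41 for all genes.

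By the largest gap between log2 profiles over the 4 arrays, each centred on its own mean, the genes most like Akt1 among 8768 named genes above the floor on all arrays were Ppa2, Txlna, Melk, Abcf1 and Ptcd3, with gaps of 0.01 to 0.03. For example Melk read 810.4, 1213.6, 1250.4 and 1308.1 in the order non-transformed, H-RasV12, myr-Akt and c-Myc. In all, 134 genes lay within 0.1 of Akt1. Phlpp1 had 2 genes within 0.1, Zfp358 and Ror2, followed by Grasp, a probe set annotated to the miRNA gene Mir1931 and Ctnnd1 at about 0.12. Of the other members the nearest to Akt1 was Pik3cb, 0.49 away, and the nearest to Phlpp1 was Pik3ca, 0.36 away.

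Beyond the 8 genes, a list of 109 pathway genes in 12 roles, the 8 included, was read in the same way. Of these, 101 had a single-gene probe set, 91 passed the floor on 1 array or more and 10 were under it throughout, while 8 were not analysed here. On the H-RasV12 array 1 of 91 was called higher and 3 lower (1.10% and 3.30%), on the myr-Akt array 2 higher and 9 lower (2.20% and 9.89%), and on the c-Myc array 1 higher and 5 lower (1.10% and 5.49%). Each share was under that of all genes given above. The median log2 difference over the 91 genes was -0.12, -0.11 and -0.03. Between oncogene cultures, 16 of 91 were called for myr-Akt against H-RasV12 (17.6%), 8 for myr-Akt against c-Myc (8.79%) and 8 for c-Myc against H-RasV12 (8.79%), beside 13.7%, 3.54% and 13.9% of all genes. The first 2 shares thus lay above those of all genes and the third below. Of the 21 calls against non-transformed cells, 5 held under all 8 alternatives, and 3 of those 5 rest on a gene with 1 probe set.

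**Figure D3:**
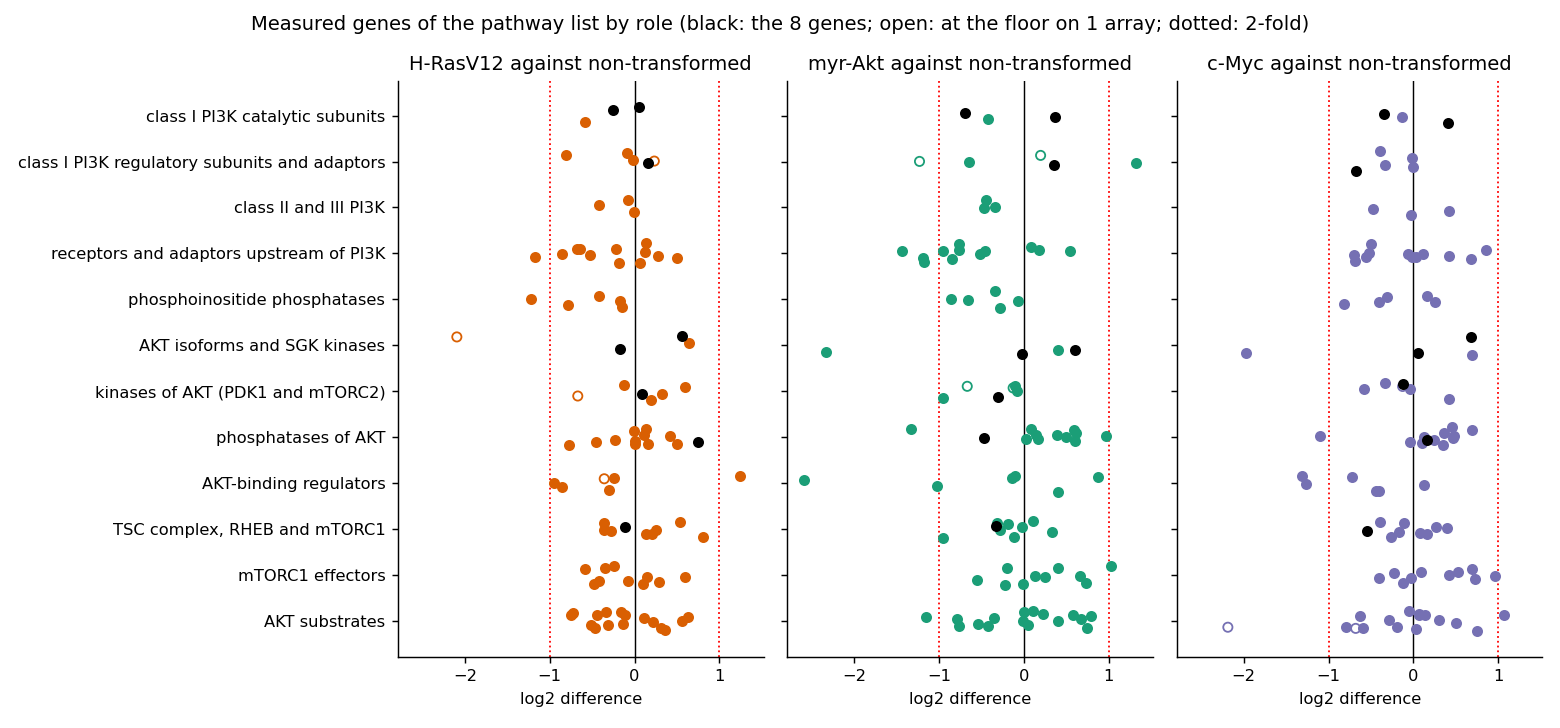
Log2 difference from non-transformed cells of the 91 measured pathway genes, grouped by role, with 1 panel per oncogene array and vertical jitter only to separate points. Black points are the 8 genes, open points are at the floor on 1 array and dotted lines mark 2-fold. On the myr-Akt panel the row of receptors and adaptors holds 3 genes past 2-fold on the lower side.

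Of 12 measured receptors and adaptors that recruit PI3K, 3 were called lower with myr-Akt and 0 higher, with a median log2 difference of -0.76. Over all genes 12.7% were called lower, with a median of -0.02. Igf1r, the IGF1 receptor gene, read 3429 in non-transformed cells, 3743 with H-RasV12, 1268 with myr-Akt and 3286 in the culture labelled c-Myc, so the myr-Akt array stood apart from the other 3 (log2 difference -1.44). Its next probe set gave -1.30, while the mean over its 5 probe sets, which holds dim ones, gave -0.75. Irs1, an adaptor of the insulin and IGF1 receptors, read 2754, 1769, 1203 and 1868 (-1.19 for myr-Akt, and -0.88 with median scaling).

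Irs2 and Insr, singled out after their values were seen as the partners of Irs1, were not called against non-transformed cells. Irs2 read 932.7, 1134, 480.6 and 1246, with -0.96 for myr-Akt and called lower there than with H-RasV12 (-1.24) and in the culture labelled c-Myc (-1.37). Insr, the insulin receptor gene, read 555.1, 307.2, 308.2 and 566.5, with the H-RasV12 and myr-Akt arrays both 0.85 below, and its next probe set was under the floor. Gab2, an adaptor of several receptors, was called lower with myr-Akt (546.7 against 242.5), but not with median scaling (-0.86), a pseudocount (-0.92) or the mean over probe sets (-0.39), and its next probe set was under the floor. Its relative Gab1, which couples MET and EGFR to PI3K, was called lower with H-RasV12 (980.0 against 436.3, -1.17, with -0.93 by its next probe set and -0.70 by the mean over probe sets) and read 1429 and 1570 with myr-Akt and c-Myc.

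Phosphatases that remove phosphates from PIP3 and its products had 1 of 5 measured genes called, Inpp5k, lower with H-RasV12, where 6.27% of all genes were called lower. Inpp5k read 944.0 in non-transformed cells, 404.2 with H-RasV12, 775.9 with myr-Akt and 1051 in the culture labelled c-Myc, its next probe set gave -1.07 for H-RasV12, and the mean over probe sets gave -0.95. Inppl1, which encodes SHIP2, read 2293, 2073, 1802 and 2725. Inpp4a read 455.2, 339.1, 251.3 and 342.3, Inpp5e 334.8, 296.6, 212.0 and 268.7, and Inpp5j 248.6, 144.8, 236.9 and 140.7. The next probe set of Inpp5e read 178.2, 211.1, 244.0 and 221.1, lowest in non-transformed cells and highest with myr-Akt, so no direction can be given for Inpp5e. Inpp4b and Inpp5d were under the floor on all arrays. Of the phosphatases that act on AKT, Ppp2r5b, a regulatory subunit of PP2A, was called lower with myr-Akt (395.7 against 156.6) and in the culture labelled c-Myc (184.8), by 1 probe set. The first call was lost with a floor at 40% (-0.98) and a pseudocount (-0.95), the second with these and with median scaling (-0.75) and quantile normalization (-0.94).

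SGK kinases are relatives of AKT that PDK1 also activates. Of 4 measured AKT and SGK genes, 1 was called lower on each oncogene array. This was Sgk3 for H-RasV12, and Sgk1 for myr-Akt and c-Myc. Over all genes 6.27% were called lower for H-RasV12, 12.7% for myr-Akt and 11.3% for c-Myc. Sgk1 read 10262 in non-transformed cells, 16027 with H-RasV12, 2036 with myr-Akt and 2606 in the culture labelled c-Myc, so it was 5.04-fold and 3.94-fold lower on the last 2 arrays. Both calls held under all 8 alternatives, but with 1 probe set those of floor and probe set could not move them. Sgk3 read 426.9, 69.0, 561.9 and 690.3, at least 4.27-fold lower with H-RasV12, and its next probe set was lower there too, at 323.5 against 92.5. This call too held under all 8 alternatives.

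Tribbles proteins, pseudokinases of which some bind AKT, differed between oncogene cultures in different ways. Trib2 read 823.1 in non-transformed cells, 1941 with H-RasV12, 136.5 with myr-Akt and 342.4 in the culture labelled c-Myc, by a probe set that can bind more than 1 transcript, and its next probe set was under the floor on every array. Trib3 read 730.7, 403.8, 1340 and 292.9, called lower in the culture labelled c-Myc (-1.32, but -0.97 with median scaling and -0.82 by its next probe set) and highest with myr-Akt (0.87, and 1.29 by its next probe set). Trib1 read 1396, 725.8, 683.9 and 845.0, called for myr-Akt at -1.03 but not with median scaling or the mean over probe sets (both -0.72), a pseudocount (-0.93) or its next probe set (-0.40).

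Further along the pathway, Rictor, which defines mTORC2, was also singled out after its values were seen. It read 1152, 1319, 593.9 and 911.9, with -0.96 for myr-Akt, but its next probe set read 277.4, 617.4, 341.2 and 550.5 and put non-transformed cells lowest. Of 10 measured mTORC1 effectors 1 was called with myr-Akt, where 17.6% of all genes were called in either direction. This was Eif4e, which encodes the cap-binding protein and read 5241, 7920, 10639 and 8675, 1.02 higher with myr-Akt, 0.97 with quantile normalization and 0.57 with the mean over probe sets. Of 16 AKT substrates, Cdkn1a, a CDK inhibitor gene that p53 also induces, read 455.4, 585.5, 205.0 and 60.3, called lower with myr-Akt (-1.15, but -0.84 with median scaling, -0.86 with a pseudocount and -0.95 with quantile normalization) and at least 4.55-fold lower in the culture labelled c-Myc, which held under all 8 alternatives. Foxo4 read 351.3, 253.8, 522.8 and 738.0, called higher in the culture labelled c-Myc (1.07) but not with a pseudocount (0.89) or the mean over probe sets (0.54), and its next probe set was under the floor throughout.

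**Figure D4:**
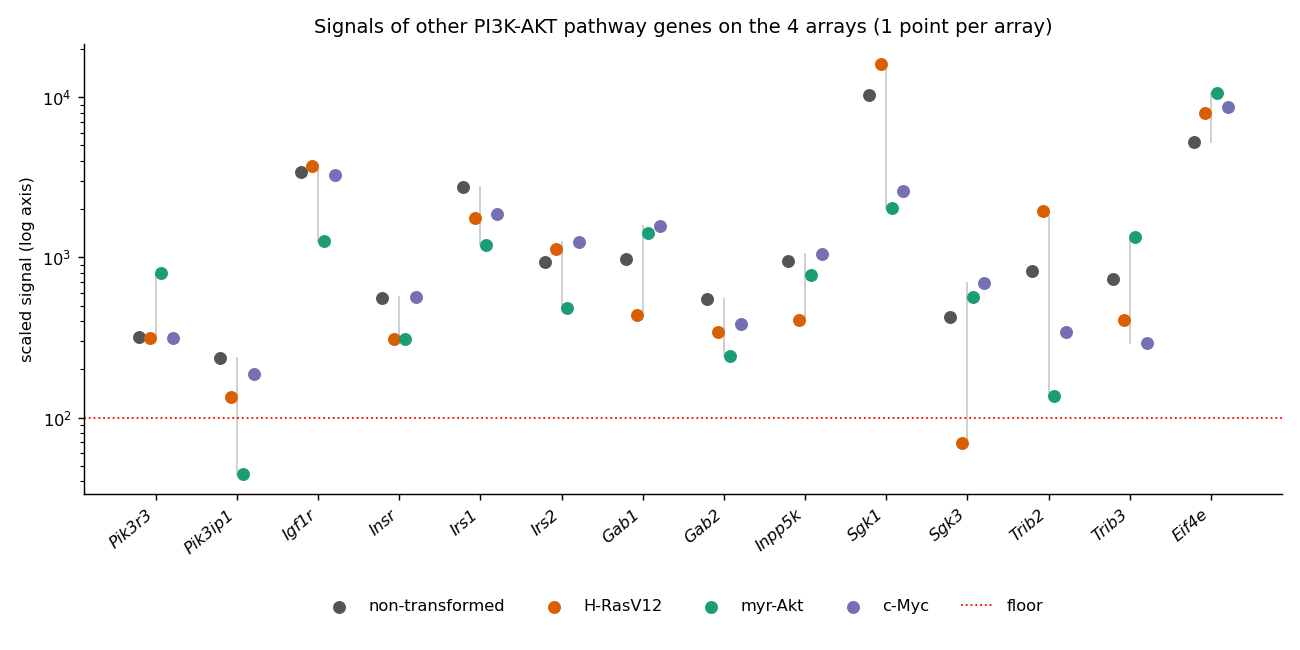
Scaled signal (log axis) of 14 other pathway genes on each array, 1 point per array by the brightest probe set, with a dotted line at the floor. Points of a gene are shifted sideways to separate them. Igf1r, Irs1, Irs2 and Gab2 are lowest on the myr-Akt array, Pik3r3 is highest there at 800.4, and Sgk3 lies under the floor on the H-RasV12 array at 69.0.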

How the data were processed

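RNA from 4 cultures was measured on 4 single-colour arrays, with groups taken from the labels. The authors deposited linear probe-set intensities from MAS5, as named per the submitters' processing notes without a version. The values show a 2% trimmed mean of 500.003 on each array. After scaling to that mean, a floor at 20% of it was applied, and differences were taken on the log2 scale. Of 45101 probe sets, 64 controls were left out, 34945 had 1 symbol in the platform annotation, 932 several and 9160 none. A gene was read by its brightest single-gene probe set on average, a rule that can miss a fall seen by 1 probe set alone. The count of 2-fold differences was tested on simulated data in which all probe sets of a gene changed. Members, lists and motifs were chosen with earlier results of these data known. Named were all members; up to 4 genes per role called against non-transformed cells; AKT isoforms, class I subunits and lipid phosphatases; and the 5 genes most like Akt1 and like the widest-ranging member. Alternatives were 2 other floors, a pseudocount equal to the floor, 2 other scalings and 3 other choices of probe set. Promoters came from the RefSeq table for GRCm38.p6. Python 3.11.15, numpy 2.4.6, pandas 2.3.3 and matplotlib 3.10.9 were used.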

Additional observations from a re-analysis of the deposited data

Results flagged for a closer look

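Trib2 was called in opposite directions against non-transformed cells, with log2 differences of 1.24 for H-RasV12, -2.59 for myr-Akt and -1.27 for c-Myc. The difference between the cultures was not tested, since each has 1 array. With the mean over probe sets they were 0.41, -0.86 and -0.42, none of them called, and the c-Myc value was -0.91 with median scaling. The main values come from a probe set that can bind more than 1 transcript, and the differences were 0.00 in all 3 comparisons without such probe sets, where the gene's other probe sets were under the floor.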

How the results depend on the processing

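Of 384 member values under the alternatives (8 genes, 6 comparisons, 8 alternatives), 366 kept their sign and 6 crossed 2-fold. Of the 208 with a main size of 0.3 or more, 202 kept it. Many of these values could not move. The brightest probe set of each of the 8 genes lay above every floor tried. Pik3cb, Phlpp1 and Tsc2 have 1 probe set, so the choice of probe set could not change them. Akt2 values of exactly 0 for H-RasV12 were counted as keeping their sign. Counts below are of genes at least 2-fold apart, with the main count in brackets. For myr-Akt against c-Myc, members were 0 (1) with a pseudocount, median scaling, the mean over probe sets and the next brightest probe set. All genes there were 246 with a floor at 40%, 248 with a pseudocount and 231 with the mean (378). The pathway list was 5, 4 and 3 (8), and 5 with the next brightest probe set, where 72 genes of the list are measured. With median scaling, members were 1 (0) for c-Myc against non-transformed and 0 (1) for myr-Akt against H-RasV12, and the list 12 (6) and, for c-Myc against H-RasV12, 13 (8). For myr-Akt against non-transformed the list was 7 (11) with a pseudocount and with the mean. With the mean, the list was 1 (4) for H-RasV12 against non-transformed, 10 (16) for myr-Akt against H-RasV12 and 5 (8) for c-Myc against H-RasV12, and all genes for H-RasV12 against non-transformed 590 (892). Tsc1 for c-Myc against non-transformed went from -0.39 to 1.02 with its next brightest probe set. The cause of these shifts was not tested. No paired analysis was possible because each group has 1 array, and no replicate could be left out.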
